A study of Mus musculus with 10 samples.

Results

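The genes described here are 3 mouse Cyp2b cytochrome P450 genes (Cyp2b9, Cyp2b10 and Cyp2b13) and 6 genes of the CAR/PXR axis that works with them: Nr1i3, Nr1i2, Rxra, Alas1, Por and Cyp3a11. All probes whose RefSeq accession belongs to 1 of these 9 genes were taken, which gave 13 of the 41174 probes on the array. The genes were chosen by their log2 ratios in these same arrays, across all 3 groups, so their values and differences are a description and carry no test. Of the 13 probes, 12 entered the fit over all probes. The probe of Cyp3a11 did not, because the scanner software marked 5 of its 10 spots as outliers.

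CAR (gene Nr1i3) and PXR (gene Nr1i2) are nuclear receptors of the hepatocyte that answer to drugs, bile acids and other small molecules. Each binds DNA as a pair with RXRα (gene Rxra). Their best known targets are the P450 genes of the Cyp2b and Cyp3a families, and Cyp2b10 is the usual readout of CAR in mouse liver. CAR is held in the cytoplasm by a chaperone complex until an activating signal, such as the loss of epidermal growth factor receptor signalling, lets it enter the nucleus. P450 enzymes need haem, whose synthesis in liver is limited by ALAS1, and electrons from P450 oxidoreductase (gene Por). In mouse liver Cyp2b9 and Cyp2b13 are known as female-predominant genes, and CAR and its P450 targets are used mainly by hepatocytes near the central vein.

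The livers came from male mice of the C57BL/6N strain and were measured on 2-colour Agilent arrays in 3 groups: ethanol gavage at 7 g/kg (3 arrays), ethanol gavage at 5 g/kg (4 arrays) and gavage of maltose (3 arrays). The labels match the maltose to the calories of 5 g/kg ethanol, so the 7 g/kg group was set against maltose of fewer calories. No untreated group, no interval between gavage and collection and no number of animals per array is given in the labels. Nothing in them states that the arrays of a group came from separate mice, so the p-values below measure the spread between arrays. Each array carried liver RNA in Cy5 and a commercial mixture of mouse total RNA in Cy3, for which the labels also name liver as the tissue. The measurement is therefore the log2 ratio of liver over this common reference, and levels of different probes cannot be set against each other.

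The median liver signal of an array was 121 to 219 units, against 21 to 24 units of local background, and no spot was saturated. The number of arrays limits the precision. The arrays came from 4 slides, each with arrays of more than 1 group. Among 10 hepatocyte markers 7 were tested. Of them, 4 were higher at 7 g/kg (Ttr, Tat, Fgb and Hpx) and 1 at 5 g/kg (Fgb), and none was lower at either dose (limma, adjusted p under 0.05). Over all genes with a symbol, 6.03% were higher at 7 g/kg and 3.15% at 5 g/kg. The 4 differences at 7 g/kg ran from 0.69 for Ttr to 2.64 for Fgb. Alb (0.08), Apoa1 (−0.16) and Apob (−0.25) passed at neither dose. The summed Cy5 level of the hepatocyte markers spanned 19.08 to 19.25 at 7 g/kg, 19.04 to 19.13 at 5 g/kg and 18.96 to 19.07 on maltose (log2 units). In whole liver, fewer cells of a type and less RNA per cell cannot be told apart.

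The promoters of the 3 Cyp2b genes are shown because these genes gave the largest differences below. Likeness of promoters does not tell which transcript a probe reads, and transcript and probe sequences were not compared. The 3 genes lie side by side on chromosome 7, in the order Cyp2b10, Cyp2b13 and Cyp2b9 among the protein-coding genes, between Cyp2s1 and Vmn1r184. Each window runs from 250 bases before to 50 bases after the RefSeq start, on the + strand of GRCm38.p6. Cyp2b9 lies at chr7:26173159-26173458, Cyp2b10 at chr7:25897408-25897707 and Cyp2b13 at chr7:26061245-26061544. Capitals mark matches to AGGTCA, a half-site that nuclear receptors are known to bind.
Cyp2b9: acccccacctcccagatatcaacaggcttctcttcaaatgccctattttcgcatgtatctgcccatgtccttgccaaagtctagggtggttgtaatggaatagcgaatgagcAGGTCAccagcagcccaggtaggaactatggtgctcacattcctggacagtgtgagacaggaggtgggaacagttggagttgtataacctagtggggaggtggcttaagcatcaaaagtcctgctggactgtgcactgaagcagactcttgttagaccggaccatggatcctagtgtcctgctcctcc
Cyp2b10: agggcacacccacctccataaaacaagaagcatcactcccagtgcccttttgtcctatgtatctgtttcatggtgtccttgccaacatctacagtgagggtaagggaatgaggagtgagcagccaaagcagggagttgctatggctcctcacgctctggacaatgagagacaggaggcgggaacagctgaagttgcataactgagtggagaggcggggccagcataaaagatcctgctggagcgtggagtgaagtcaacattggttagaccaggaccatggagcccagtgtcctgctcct
Cyp2b13: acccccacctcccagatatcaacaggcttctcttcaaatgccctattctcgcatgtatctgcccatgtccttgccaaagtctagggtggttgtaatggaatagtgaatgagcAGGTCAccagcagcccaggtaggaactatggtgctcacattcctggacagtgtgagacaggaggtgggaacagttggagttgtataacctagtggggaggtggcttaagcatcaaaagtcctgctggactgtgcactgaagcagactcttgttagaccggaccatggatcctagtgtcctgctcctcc

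The windows of Cyp2b9 and Cyp2b13 were identical at 298 of 300 bases (99.3%). Their 2 differences were T48C and C104T, with the base of Cyp2b9 first, the position counted from 1 at the 5′ end of the window, and the base of Cyp2b13 last. Against either of them, the window of Cyp2b10 was identical in 71.7% of 311 aligned columns, gaps included. AGGTCA began at position −138 from the start in Cyp2b9 and in Cyp2b13, and was not found in the window of Cyp2b10 on either strand. That half-site occurred in 16.3% of 32851 mouse promoter windows of the same length. AGTTCA, a related half-site, occurred in 14.0% of them and in none of the 3 Cyp2b windows. The direct repeats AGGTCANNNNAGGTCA and AGTTCANNNNAGTTCA were searched on both strands as well, were absent from the 3 windows, and occurred in 0.0152% and 0.0122% of all windows. A missing match says only that these letters are not in these 300 bases, and the upstream enhancers through which CAR is known to act on Cyp2b10 lie outside them.

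Of the 5 Cyp2b probes, 4 were far higher in ethanol livers than in maltose livers at both doses, with differences of 1.72 to 4.75 on the log2 scale. In these 4 probes no ethanol array overlapped a maltose array. Among all 32648 probes tested, groups did not overlap for 25.9% at 7 g/kg against maltose and for 17.1% at 5 g/kg against maltose. The share of all probes past an adjusted p of 0.05 was 9.35% and 4.14% in the same 2 comparisons. Both comparisons use the same 3 maltose arrays. For scale, leaving out the lowest and highest 1% of all probes, differences lay between −0.81 and 1.08 at 7 g/kg and between −0.55 and 0.82 at 5 g/kg.

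Cyp2b10, the classic CAR target, was read by probe A_52_P472486. Its log2 ratios were −0.29, 0.38 and −0.62 at 7 g/kg, 0.51, 0.68, 1.05 and 0.76 at 5 g/kg, and −4.10, −3.30 and −3.87 on maltose. All 7 ethanol arrays stood near the reference mixture, while the 3 maltose arrays stood far below it. The raw liver signals behind these ratios were 1688, 2374 and 1598 units at 7 g/kg, 1434, 2490, 4184 and 3480 units at 5 g/kg, and 101, 52 and 114 units on maltose. The maltose spots were still well above background. Spots of 5 g/kg replicates 2 and 4 were marked as non-uniform and left out, so the means were −0.18 ± 0.51 at 7 g/kg (SD, n = 3), 0.78 ± 0.39 at 5 g/kg (n = 2) and −3.76 ± 0.41 on maltose (n = 3). Cyp2b10 was thus 12-fold higher at 7 g/kg than on maltose (log2 difference 3.58, SE 0.25) and 23.2-fold higher at 5 g/kg than on maltose (4.54, SE 0.28). At 7 g/kg it was 0.96 lower than at 5 g/kg (log2 difference −0.96, SE 0.28), and these groups did not overlap. Within slides that held both groups, the 7 g/kg difference from maltose was 3.01 and 3.26. The 5 g/kg difference was 4.60 in the 1 slide with unmarked spots, and 3.98 to 4.65 in 3 slides with the marked spots kept.

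Cyp2b13 has 2 probes, and they disagreed. Probe A_51_P492339 had log2 ratios of −0.40, 0.18 and −0.69 at 7 g/kg, 0.31, 0.40, 0.52 and 0.55 at 5 g/kg, and −4.90, −3.82 and −4.17 on maltose. In this probe every ethanol array lay more than 3 log2 units above every maltose array. The spot of 5 g/kg replicate 2 (0.40) was marked and left out of the mean. Its means were −0.30 ± 0.44 at 7 g/kg, 0.46 ± 0.13 at 5 g/kg and −4.30 ± 0.55 on maltose (SD, n = 3 each). The differences from maltose were 3.99 (SE 0.25, 15.9-fold) at 7 g/kg and 4.75 (SE 0.25, 27.0-fold) at 5 g/kg. Within slides the 7 g/kg difference was 3.42 and 3.48, and the 5 g/kg difference was 4.72 and 5.21.

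Probe A_52_P289091 of Cyp2b13 had log2 ratios of 0.55, 0.67 and −0.12 at 7 g/kg, 0.05, 0.61, −0.23 and 0.75 at 5 g/kg, and −0.01, 0.06 and 0.33 on maltose. The 3 groups overlapped, and the differences from maltose were 0.24 (SE 0.24) at 7 g/kg and 0.17 (SE 0.22) at 5 g/kg. None of its 10 spots was marked and all were well above background, with liver signals of 193 to 703 units. The deposited files used here hold no probe sequences, so which part of the transcript, or which transcript, each probe reads was not tested.

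Cyp2b9 has 2 probes that ran the same way. Probe A_51_P467076 had log2 ratios of −0.24, 0.45 and −0.09 at 7 g/kg, 0.40, 0.69, 1.26 and 0.47 at 5 g/kg, and −3.26, −2.53 and −2.49 on maltose. The ethanol arrays lay apart from the maltose arrays, as for Cyp2b10. The spots of 5 g/kg replicates 2 and 3, the 2 highest values of that group, were marked and left out. The means were 0.04 ± 0.36 at 7 g/kg (SD, n = 3), 0.44 ± 0.05 at 5 g/kg (n = 2) and −2.76 ± 0.43 on maltose (n = 3). The differences from maltose were 2.80 (SE 0.21, 6.97-fold) at 7 g/kg and 3.20 (SE 0.23, 9.17-fold) at 5 g/kg; with the marked spots kept, the 5 g/kg value was 3.46. Maltose replicate 1 was not well above background for this probe, with a liver signal of 70 units, and the other 2 maltose arrays were. The 5 g/kg difference was 4.12 with no offset in the background correction and 4.72 from the scanner-processed ratio.

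Probe A_52_P256914 of Cyp2b9 had log2 ratios of −0.30, 0.34 and −0.31 at 7 g/kg, 0.28, 0.35, 0.81 and 0.70 at 5 g/kg, and −2.04, −1.78 and −1.61 on maltose. Ethanol and maltose arrays again did not overlap, at smaller distance. With the marked spots of 5 g/kg replicates 2 and 4 left out, the means were −0.09 ± 0.37 at 7 g/kg (SD, n = 3), 0.55 ± 0.38 at 5 g/kg (n = 2) and −1.81 ± 0.21 on maltose (n = 3). The differences from maltose were 1.72 (SE 0.19, 3.30-fold) at 7 g/kg and 2.36 (SE 0.22, 5.12-fold) at 5 g/kg. All 10 of its spots were well above background.

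**Figure D1:**
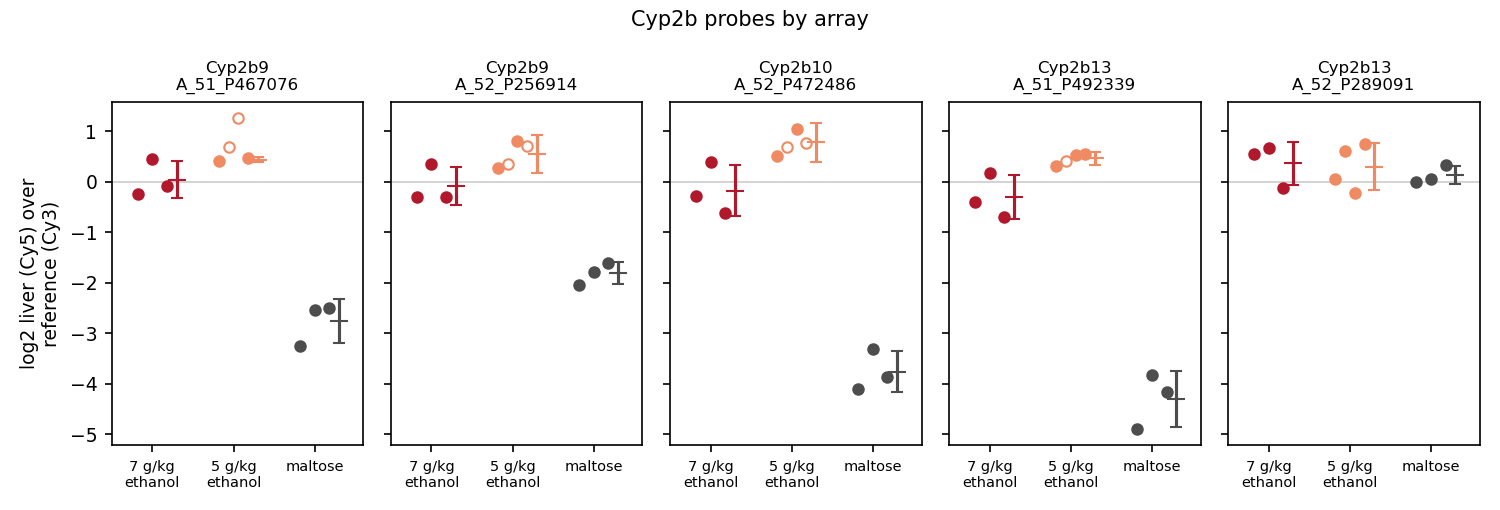
Log2 ratio of liver over reference for each Cyp2b probe by array, at 7 g/kg ethanol, 5 g/kg ethanol and on maltose, with 1 point per array; open circles are spots marked as outliers, and bars give the mean ± SD of the unmarked arrays. In 4 of the 5 probes the ethanol arrays lie between −0.69 and 1.26 and the maltose arrays between −4.90 and −1.61, whereas the groups overlap for probe A_52_P289091 of Cyp2b13.

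Between the doses, the same 4 probes were lower at 7 g/kg than at 5 g/kg, by 0.40 to 0.96 on the log2 scale. The differences of 7 minus 5 g/kg were −0.96 (SE 0.28) for Cyp2b10, −0.76 (SE 0.25) for the first Cyp2b13 probe, and −0.40 (SE 0.23) and −0.64 (SE 0.22) for the 2 Cyp2b9 probes. The value of −0.40, of probe A_51_P467076, was −0.66 with its 2 marked 5 g/kg spots kept, −0.83 with slide as a block and −0.85 from the deposited series table. The groups did not overlap for Cyp2b10 and for Cyp2b13 probe A_51_P492339, so for 2 of 5 Cyp2b probes, beside 11.3% of all probes in this comparison, in which 1.71% passed an adjusted p of 0.05. In each of the 4 probes 7 g/kg replicate 2 was the highest of its group. Since the 3 genes are close relatives, a probe may bind transcripts of several, and the 4 probes are not independent readings of 3 genes.

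The marked spots were not spread evenly. Of the Cyp2b spots, 0 of 15 were marked at 7 g/kg, 7 of 20 (35.0%) at 5 g/kg and 0 of 15 on maltose. Over all probes the marked shares were 3.39% at 7 g/kg, 3.76% at 5 g/kg and 3.16% on maltose. All 7 marks were for a non-uniform spot in the Cy5 channel, which holds the liver RNA. By array, 4 of the 7 lay on 5 g/kg replicate 2, which also had the highest share of marked spots of any array (5.83%), 2 on replicate 4 and 1 on replicate 3. The marked values did not go against the unmarked ones: every marked Cyp2b spot stood at or above 0.35, and all lay above every maltose array. Keeping them gave 5 g/kg differences of 4.50 to 4.74 for Cyp2b10 and Cyp2b13 probe A_51_P492339.

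Nr1i3, the gene of CAR itself, was lower in ethanol livers than in maltose livers, where the 4 Cyp2b probes above were higher. Its log2 ratios were −0.85, −1.07 and −0.90 at 7 g/kg, −0.10, 0.15, −0.44 and 0.24 at 5 g/kg, and 0.22, 0.45 and 0.73 on maltose. The 7 g/kg arrays were the lowest and lay close together, the 5 g/kg arrays were spread between, and the maltose arrays were the highest. With the marked spot of 5 g/kg replicate 4 (0.24) left out, the means were −0.94 ± 0.12 at 7 g/kg, −0.13 ± 0.30 at 5 g/kg and 0.47 ± 0.26 on maltose (SD, n = 3 each). Nr1i3 was 2.65-fold lower at 7 g/kg than on maltose (log2 difference −1.41, SE 0.16) and 1.51-fold lower at 5 g/kg than on maltose (−0.60, SE 0.16). The 5 g/kg groups did not overlap without the marked spot and overlapped with it, when the difference was −0.50. Between the doses it was −0.81 (SE 0.16) for 7 minus 5 g/kg, without overlap. Within slides the 7 g/kg difference from maltose was −1.63 and −1.30, and the 5 g/kg difference was −0.32 and −0.30, smaller than the value over all arrays.

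Nr1i2, the gene of PXR, differed less. Its log2 ratios were −0.19, 0.03 and −0.38 at 7 g/kg, −0.12, 0.16, 0.05 and 0.05 at 5 g/kg, and 0.51, 0.16 and 0.08 on maltose. The 7 g/kg arrays lay below the maltose arrays, and the 5 g/kg arrays overlapped both. The means were −0.18 ± 0.21 at 7 g/kg (SD, n = 3), 0.04 ± 0.12 at 5 g/kg (n = 4) and 0.25 ± 0.22 on maltose (n = 3). The difference from maltose was −0.43 (SE 0.14) at 7 g/kg and −0.21 (SE 0.13) at 5 g/kg, and 7 minus 5 g/kg was −0.22 (SE 0.13).

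Rxra, the gene of the common partner RXRα, has 2 probes. Probe A_51_P307370 had log2 ratios of −0.21, −0.37 and −0.42 at 7 g/kg, −0.26, −0.12, −0.36 and −0.33 at 5 g/kg, and −0.29, 0.02 and −0.06 on maltose. Its groups overlapped, with differences from maltose of −0.23 (SE 0.12) at 7 g/kg and −0.16 (SE 0.11) at 5 g/kg. Probe A_52_P188139 had log2 ratios of −0.21, −0.34 and −0.13 at 7 g/kg, −0.06, −0.12, −0.12 and −0.27 at 5 g/kg, and 0.13, 0.13 and 0.38 on maltose, where the spot of replicate 2 was marked. For this probe all 7 ethanol arrays lay below the maltose arrays, with differences of −0.48 (SE 0.13) at 7 g/kg and −0.40 (SE 0.12) at 5 g/kg from 2 unmarked maltose arrays. The doses overlapped for both Rxra probes.

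Alas1, which encodes the rate-limiting enzyme of haem synthesis in liver and is a known CAR and PXR target, was lower in ethanol livers. Probe A_51_P128929 had log2 ratios of −0.99, −1.30 and −0.33 at 7 g/kg, 0.25, 0.37, 0.05 and −0.23 at 5 g/kg, and 0.68, 1.17 and 0.74 on maltose. The 3 groups did not overlap, and the order ran from 7 g/kg as the lowest to maltose as the highest. The means were −0.87 ± 0.49 at 7 g/kg (SD, n = 3), 0.11 ± 0.26 at 5 g/kg (n = 4) and 0.86 ± 0.27 on maltose (n = 3). The differences from maltose were −1.73 (SE 0.22), or 3.32-fold lower, at 7 g/kg and −0.75 (SE 0.20), or 1.69-fold lower, at 5 g/kg. Between the doses it was −0.98 (SE 0.20) for 7 minus 5 g/kg, and it spanned −1.35 to −0.10 within 3 slides.

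The second Alas1 probe, A_52_P129756, gave −1.21, −1.47 and −0.38 at 7 g/kg, 0.24, 0.23, −0.15 and −0.41 at 5 g/kg, and 0.55, 1.18 and 0.56 on maltose. The spot of 5 g/kg replicate 2 (0.23) was marked. The ethanol groups stayed below maltose, and the 2 doses overlapped by 1 array, since 7 g/kg replicate 3 stood above 5 g/kg replicate 4. The differences were −1.78 (SE 0.25) at 7 g/kg against maltose, −0.87 (SE 0.25) at 5 g/kg against maltose and −0.91 (SE 0.25) for 7 minus 5 g/kg. In both probes 7 g/kg replicate 3 was the highest of its group. That array shares its slide with maltose replicate 3, and there the 7 g/kg difference was −1.07 and −0.94 for the 2 probes, beside −2.15 and −2.39 in the other slide with both groups. In that same slide 7 minus 5 g/kg was −0.10 and 0.03 for the 2 probes, so the dose difference was nearly absent there. In another slide with both doses it was −1.35 and −1.32.

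Por, which encodes the reductase that passes electrons to the microsomal P450 enzymes, had log2 ratios of −0.47, −0.42 and −0.21 at 7 g/kg, 0.21, 0.28, 0.08 and 0.12 at 5 g/kg, and 0.26, −0.11 and 0.02 on maltose. The 7 g/kg arrays lay below all others, and the 5 g/kg and maltose arrays overlapped. The means were −0.37 ± 0.14 at 7 g/kg (SD, n = 3), 0.17 ± 0.09 at 5 g/kg (n = 4) and 0.06 ± 0.18 on maltose (n = 3). The difference from maltose was −0.42 (SE 0.12) at 7 g/kg and 0.12 (SE 0.11) at 5 g/kg, and 7 minus 5 g/kg was −0.54 (SE 0.11). Within slides the 7 g/kg difference from maltose was −0.36 and −0.23, and the 5 g/kg difference was −0.04 to 0.38 in 3 slides.

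Cyp3a11, the main drug-metabolising Cyp3a gene of mouse liver and the usual readout of PXR, is described from all 10 spots, since 1 unmarked maltose spot was left. Its log2 ratios were −0.15, −0.01 and −0.37 at 7 g/kg (replicate 3 marked), 0.26, 0.50, 0.54 and 0.50 at 5 g/kg (replicates 1 and 2 marked), and −0.11, −0.02 and 0.26 on maltose (replicates 2 and 3 marked). With the marked spots kept, 7 g/kg lay 0.23 below maltose (log2 difference −0.23) with overlapping groups. At 5 g/kg it lay 0.39 above maltose, with the lowest 5 g/kg array and the highest maltose array both at 0.26. The doses differed by −0.62 for 7 minus 5 g/kg and did not overlap. The liver signal of this probe was 13938 to 48644 units, and no spot was saturated.

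**Figure D2:**
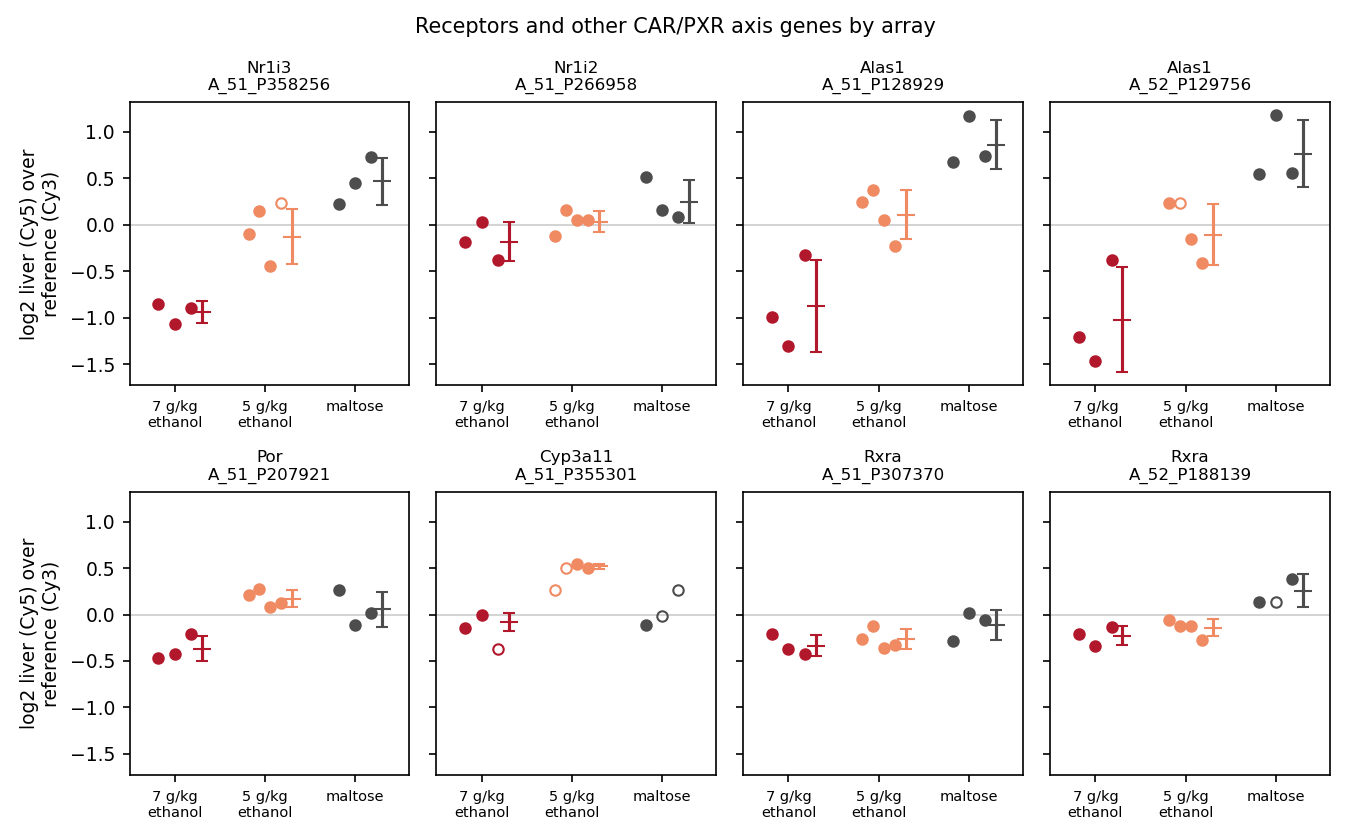
Log2 ratio of liver over reference for the receptors, Alas1, Por and Cyp3a11 by array, at 7 g/kg ethanol, 5 g/kg ethanol and on maltose; open circles are spots marked as outliers, and bars give the mean ± SD of the unmarked arrays. The 7 g/kg arrays of Nr1i3 (−1.07 to −0.85) and of both Alas1 probes lie below the maltose arrays, while the groups lie closer for Nr1i2, Por and Rxra.

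Apart from the Cyp2b probes, 7 probes of the axis entered the fit. Cyp3a11 is not among them. Alas1 and Rxra each entered with more than a single probe, so the 7 probes are not independent readings of separate genes. All 7 had a negative difference at 7 g/kg against maltose, 6 of them without overlap (25.9% of all probes), with a median of −0.48. At 5 g/kg against maltose, 6 of 7 were negative, 4 without overlap (17.1% of all probes), with a median of −0.40. Over all probes the median difference was 0.010 and 0.002. At 7 g/kg against 5 g/kg all 7 were negative, 3 without overlap (11.3% of all probes), with a median of −0.54. Por was the probe with a positive difference at 5 g/kg (0.12). The 4 high Cyp2b probes thus lay above maltose where the 7 axis probes lay below it at 7 g/kg, and between the doses both were lower at 7 g/kg.

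**Figure D3:**
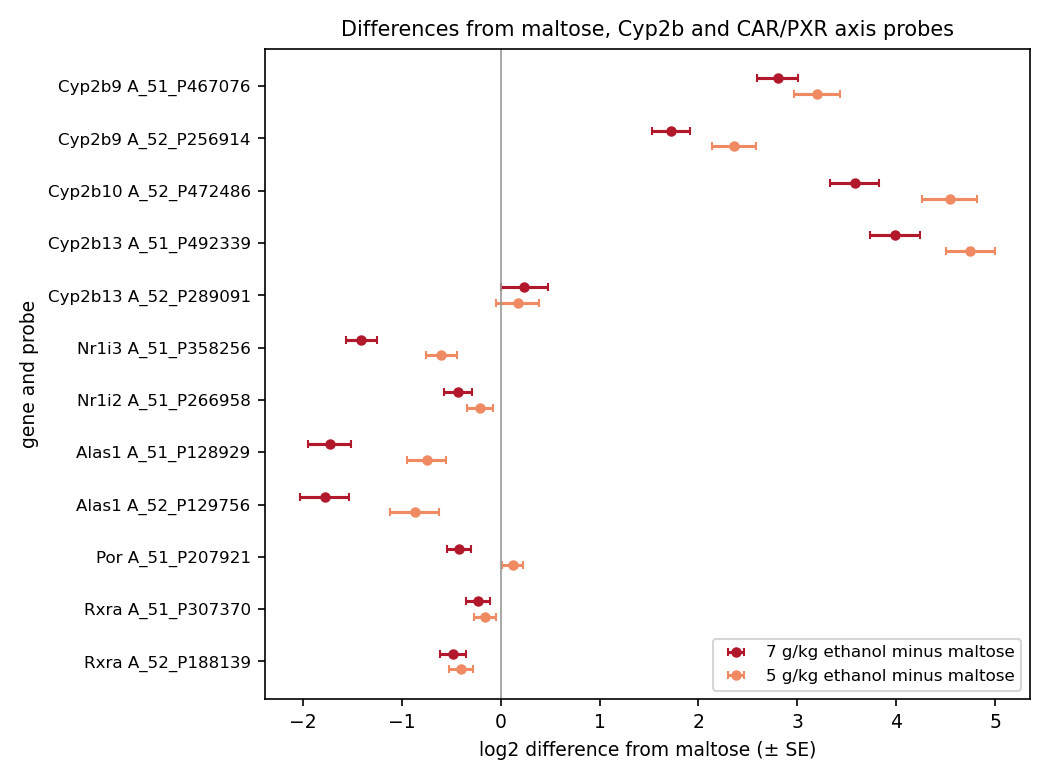
Log2 difference from maltose (± SE of the fit) for the 12 probes that entered the fit, with 7 g/kg above 5 g/kg in each pair. The 4 high Cyp2b probes lie between 1.72 and 4.75 and the probes of the receptors and Alas1 lie below 0, from −1.78 to −0.16.

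Pericentral hepatocytes are the cells in which CAR and its P450 targets are mainly used. Of 9 listed pericentral markers 8 were tested. Cyp2e1, Oat and Slc1a2 were lower at 7 g/kg, Oat was lower at 5 g/kg, and none was higher at either dose (limma, adjusted p under 0.05), beside 5.67% of all genes with a symbol lower at 7 g/kg and 2.18% at 5 g/kg. Glul, Rhbg, Lgr5, Tbx3 and Lect2 passed at neither dose, with differences of −0.23 to 0.35 at 7 g/kg. The summed Cy5 level of the pericentral markers spanned 16.23 to 16.62 at 7 g/kg, 16.46 to 16.87 at 5 g/kg and 17.03 to 17.31 on maltose (log2 units). In this sum both ethanol groups lay below maltose. Signals were summed before taking the log2, so the brightest markers weigh most. Of the 5 periportal markers tested, 2 were higher and 2 lower at 7 g/kg, and 1 was lower at 5 g/kg, with summed levels of 16.81 to 17.14 at 7 g/kg, 16.77 to 17.26 at 5 g/kg and 16.85 to 17.39 on maltose.

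Endothelial markers were higher for 3 of 8 at 7 g/kg and 2 of 8 at 5 g/kg, beside 6.03% and 3.15% of all genes with a symbol. Their summed levels were 12.02 to 12.16 at 7 g/kg, 11.89 to 12.14 at 5 g/kg and at most 11.69 on maltose. Among 7 neutrophil markers S100a8 and S100a9 were higher at 7 g/kg and none passed at 5 g/kg. S100a8 was well above background on 3 of 3 arrays at 7 g/kg and on 0 of 3 on maltose. Ngp, Ltf, Camp, Cxcr2 and Mpo did not pass, with differences of −0.13 to 0.29 at 7 g/kg. The summed levels of the neutrophil markers overlapped, at 11.91 to 12.24 at 7 g/kg, 11.59 to 12.25 at 5 g/kg and 11.51 to 12.64 on maltose. Among 7 lymphocyte markers Cd3e and Nkg7 were higher at 7 g/kg and Nkg7 at 5 g/kg, with summed levels of 11.93 to 12.10 at 7 g/kg, 11.68 to 12.40 at 5 g/kg and 11.60 to 11.84 on maltose. Of 4 small intestine markers Fabp2 and Apoa4 were lower at 7 g/kg (log2 differences −1.46 and −1.99) and Fabp2 at 5 g/kg (−0.58). Vil1 and Sis did not pass, at −0.03 and −0.10 at 7 g/kg, so the list did not move as a set. Whether the livers differed in gut tissue was not tested. The summed level of these 4 spanned 13.14 to 13.58 at 7 g/kg, 14.61 to 14.74 at 5 g/kg and 14.66 to 15.86 on maltose. At 5 g/kg 1 of 8 stellate cell and fibroblast markers was higher and 1 of 6 cholangiocyte markers was lower, and none of either passed at 7 g/kg. None of 7 Kupffer cell and macrophage markers and none of 4 exocrine pancreas markers passed at either dose. The part of these shifts in the values of Nr1i3, Alas1 and the Cyp2b genes was not tested.

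Other genes of the axis were taken from 5 lists of known CAR and PXR targets and partners. The lists were chosen for their role but with earlier results of these data known, so the shares below are a description. Of 118 listed genes 100 were tested. At 7 g/kg against maltose 20 rose and 15 fell (35% of them), with a median difference of 0.04, beside 11.7% of all genes with a symbol (6.03% rose and 5.67% fell). At 5 g/kg against maltose 14 rose and 6 fell (20%), with a median of 0.01, beside 5.33% of all genes with a symbol (3.15% rose and 2.18% fell). The 5 g/kg count of 20 was 11 without maltose replicate 1 and 13 without maltose replicate 2. Between the doses 12 were higher and 4 lower at 7 g/kg (16%), beside 2.14% of all genes with a symbol (0.978% and 1.16%). All p-values below are from limma, adjusted by the Benjamini-Hochberg method over all 32648 probes.

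Phase I targets, the oxidising and hydrolysing enzymes other than the genes above, rose for 7 of 21 and fell for 3 at 7 g/kg, and rose for 4 and fell for 2 at 5 g/kg. The shares called were 47.6% at 7 g/kg and 28.6% at 5 g/kg, beside 11.7% and 5.33% of all genes with a symbol. Cyp2c29, a P450 gene induced through CAR in mice, stood 1.55 above maltose at 7 g/kg (SE 0.18, adjusted p = 0.000131) and 1.50 above it at 5 g/kg (SE 0.17, adjusted p = 0.000322). Its log2 ratios spanned 0.24 to 0.70 at 7 g/kg, 0.21 to 0.66 at 5 g/kg and, on 2 arrays, −1.30 to −0.82 on maltose. The neighbouring P450 genes Cyp2a4 and Cyp2a5, whose near-identical transcripts a probe may not separate, went the other way. Cyp2a5 differed by −1.89 at 7 g/kg (adjusted p = 0.000320) and by −1.29 at 5 g/kg (adjusted p = 0.0176, and 0.0521 and 0.0595 without maltose replicate 2 or 3). Its 5 g/kg group held 2 unmarked arrays. Cyp2a4 differed by −1.79 (adjusted p = 0.000349) and −1.38 (adjusted p = 0.00544). Of the other Cyp2b genes on the array, Cyp2b23 stood at 0.43 (adjusted p = 0.217) at 7 g/kg and 0.62 (adjusted p = 0.0756) at 5 g/kg, and Cyp2b19 at 0.12 and 0.18 (adjusted p = 0.756 and 0.606). These 2 were picked out after their values were seen.

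Phase II targets, the conjugating enzymes, rose for 9 of 23 and fell for 2 at 7 g/kg, and rose for 7 and fell for 1 at 5 g/kg. The shares called were 47.8% at 7 g/kg and 34.8% at 5 g/kg, beside 11.7% and 5.33% of all genes with a symbol. Among those that rose at both doses was the glutathione transferase Gstm3, whose probe may also read other genes of the closely related Gstm family. It stood at 1.80 (adjusted p = 4.31e-06) at 7 g/kg and 0.73 (adjusted p = 0.00825, and 0.0544 without maltose replicate 1) at 5 g/kg. The glutathione transferase Gstt3 stood at 1.00 (adjusted p = 0.000407) and 1.40 (adjusted p = 0.000138), from 2 unmarked arrays at each dose. Ugt1a1, which conjugates bilirubin, did not pass, at −0.48 (adjusted p = 0.0547, and 0.0172 without 7 g/kg replicate 2) and 0.01 (adjusted p = 0.992). Of 8 transporter targets, 1 fell at each dose: Slco1a4, an organic anion uptake carrier, at −1.80 (adjusted p = 0.00246) at 7 g/kg, and Abcg2, an efflux pump, at −0.54 (adjusted p = 0.0179) at 5 g/kg. This share of 12.5% at each dose stood beside 11.7% and 5.33% of all genes with a symbol, so at 7 g/kg it was near that of all genes. The call of Abcg2 was lost without maltose replicate 1 or 2 (adjusted p = 0.0857 and 0.0867). The efflux pump genes Abcc3 and Abcc4 did not pass at either dose; at 7 g/kg Abcc3 passed with marked spots kept (adjusted p = 0.0316) and Abcc4 with median centring (adjusted p = 0.0479).

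Besides Alas1 and Por, 13 genes of haem turnover and electron transfer were tested, of which 3 rose and 2 fell at 7 g/kg and 1 fell at 5 g/kg. The shares called were 38.5% at 7 g/kg and 7.69% at 5 g/kg, beside 11.7% and 5.33% of all genes with a symbol. Alad, the enzyme after ALAS1 in haem synthesis, differed from maltose by −0.67 at both doses (adjusted p = 0.00460 at 7 g/kg and 0.00690 at 5 g/kg). Hmox1, which breaks haem down, differed by 1.01 at 7 g/kg (adjusted p = 0.000627) and by 0.36 at 5 g/kg (adjusted p = 0.203).

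Of 35 receptor partners and regulators, 1 rose and 7 fell at 7 g/kg, and 3 rose and 1 fell at 5 g/kg. The shares called were 22.9% at 7 g/kg and 11.4% at 5 g/kg, beside 11.7% and 5.33% of all genes with a symbol. Ppara, the fatty acid receptor, differed by −1.15 at 7 g/kg (adjusted p = 3.70e-05) and −1.26 at 5 g/kg (adjusted p = 2.99e-05). Hsp90aa1, a chaperone of the complex that holds CAR in the cytoplasm, stood at 0.37 (adjusted p = 0.102) at 7 g/kg and 1.47 (adjusted p = 4.18e-05) at 5 g/kg, and its difference of 7 minus 5 g/kg was −1.10 (adjusted p = 0.000630). Dnajc7, the co-chaperone of CAR, stood at 0.03 and −0.01 and did not pass. Egfr, whose protein represses CAR activation when stimulated, differed by 0.88 at 7 g/kg (adjusted p = 0.00175) and by 0.16 at 5 g/kg (adjusted p = 0.628). The Egfr probe used, of 4 tested, had 2 unmarked arrays at 7 g/kg. Hnf4a, Foxo1 and Ppargc1a, whose proteins are known to work with CAR or PXR, did not pass at either dose.

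Because Cyp2b9 and Cyp2b13 are female-predominant, lists of other sex-biased liver genes were read beside them. Of 13 female-predominant genes tested, 1 rose and 4 fell at 7 g/kg, with a median of −0.32, and 1 rose and 2 fell at 5 g/kg, with a median of 0.09. Over all genes with a symbol, 6.03% rose and 5.67% fell at 7 g/kg, and 3.15% rose and 2.18% fell at 5 g/kg. Cyp2a4, which is also in the phase I list, was among those that fell at both doses. Sult1e1, an oestrogen sulphotransferase that is also in the phase II list, was the one that rose, by 0.97 at 7 g/kg (adjusted p = 0.00602) and 0.87 at 5 g/kg (adjusted p = 0.0164, and 0.0783 and 0.0727 without maltose replicate 1 or 2). Cux2, a transcription factor of female liver, was well above background on none of the 3 arrays at 7 g/kg and on 1 of 4 at 5 g/kg, against 3 of 3 on maltose. It was at least 2.00-fold lower at 7 g/kg than on maltose (adjusted p = 0.00544), taking the dimmest reliable Cy5 signal of an array as a floor. The call of Cux2 was lost from the scanner-processed ratio (adjusted p = 0.0587) and from the deposited series table (adjusted p = 0.0573). Of 14 male-predominant genes tested, 4 rose and 1 fell at 7 g/kg, and 1 rose and 2 fell at 5 g/kg. Egfr, which is also in the list of partners and regulators, was among those that rose at 7 g/kg. Selenbp2 differed by 1.87 at 7 g/kg (adjusted p = 2.60e-06) and 0.82 at 5 g/kg (adjusted p = 0.00359), and Hsd3b5 by −0.62 (adjusted p = 0.344) and −1.90 (adjusted p = 0.00389). At 5 g/kg Hsd3b5 was well above background on 3 of 4 arrays. Without maltose replicate 1, Hsd3b5 passed at 7 g/kg as well, at −1.16 (adjusted p = 0.00919).

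From the Cy5 signal alone, without the reference channel, many of these calls were lost with their direction kept. At 7 g/kg these were Slco1a4 (limma, adjusted p = 0.0636), Hmox1 (0.14), Alad (0.105), Egfr (0.0608) and Sult1e1 (0.139). At 5 g/kg they were Cyp2c29 (adjusted p = 0.0897), Cyp2a4 (0.0903), Cyp2a5 (0.131), Gstm3 (0.0921), Gstt3 (0.0572), Abcg2 (0.381), Alad (0.105), Sult1e1 (0.456) and Selenbp2 (0.119). Other settings ended the 5 g/kg calls of Cyp2a5 (adjusted p = 0.076 from the scanner-processed ratio and 0.0514 with no offset), Abcg2 (0.063 with median centring) and Sult1e1 (0.0766 from the scanner-processed ratio and 0.0743 from the deposited series table).

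**Figure D4:**
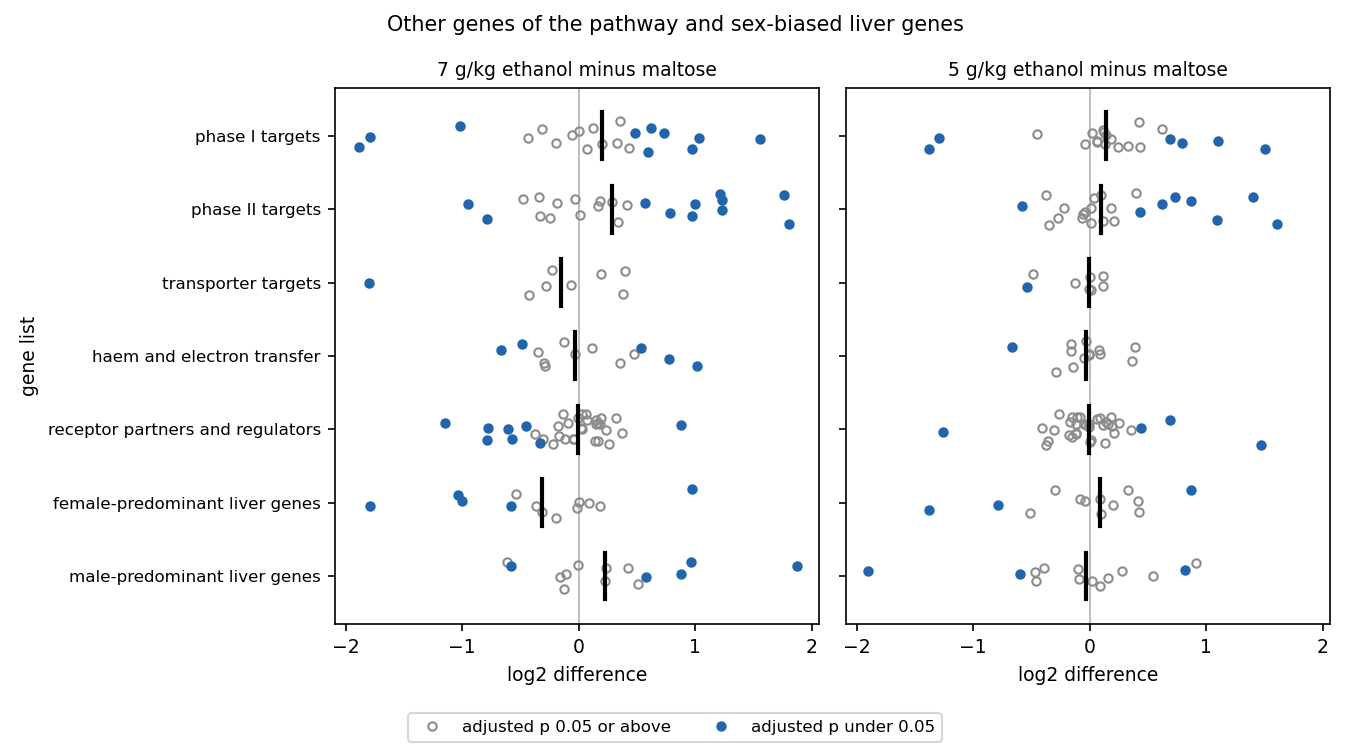
Log2 difference from maltose of the other pathway genes and of sex-biased liver genes, at 7 g/kg (left) and 5 g/kg (right), with 1 point per gene, filled where the adjusted p is under 0.05, and a vertical bar at the median of each list. List medians lie between −0.32 and 0.28 at 7 g/kg and between −0.03 and 0.14 at 5 g/kg.

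The genes whose log2 ratio most resembled that of Nr1i3 over its 9 arrays, among 19359 probes with a symbol and a value on those arrays, were Slc2a5 (r = 0.987), Pbld1 (0.986), Afmid (0.983), Tfr2 (0.974) and Mtarc2 (0.974). For the Cyp2b family the rule took the probe with values on most arrays, which is the Cyp2b13 probe whose groups overlapped (A_52_P289091). Over 10 arrays its closest genes were Ephb4 (r = 0.967), Mpv17 (0.965), Ncoa3 (0.957), Hbb-y (0.955) and Galnt17 (0.937). The other Cyp2b13 probe, A_51_P492339, was added after its values were seen, and over 9 arrays its closest genes were Cdkn1a (r = 0.982), Plpp1 (0.978), Cyp21a1 (0.977), Atf6 (0.974) and Tnk2 (0.973). These correlations run over arrays that fall into 3 groups and share 1 reference, and they carry no p.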

How the data were processed

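Log2 ratios of liver over a common reference were measured on 10 2-colour arrays (3 at 7 g/kg, 4 at 5 g/kg, 3 on maltose). The scanner software, Agilent Feature Extraction 11.5.1.1 per the file headers, gave the median spot and background intensity, not normalized, a processed intensity (background subtracted, detrended, dye normalized) and its log10 ratio of Cy5 over Cy3. The deposited series table holds a log2 ratio for 40599 probes. Its scale and direction were read from its slope of 3.32 to 3.34 on the log10 ratio (r 0.94 to 1.00), and whether it was centred is not given in the sources used here. Its column medians were 0.014, −0.073 and 0.076 at 7 g/kg, −0.042, −0.010, −0.066 and 0.045 at 5 g/kg, and 0.062, 0.025 and 0.014 on maltose.

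In R 4.3.3 with limma 3.58.1, median intensities were background corrected (normexp, offset 50), loess normalized within arrays and averaged over the spots of a probe. Control spots and spots marked as outliers (2.42% to 5.83% per array) were left out. Of 41174 probes, 24375 (59.2%) had a symbol through the RefSeq accession. Probes entered with liver signal well above background on at least 3 arrays (33973 probes) and at least 2 values per group (32648 probes). One fit of 3 group means on 10 arrays had 7 residual and 7.43 prior degrees of freedom, with a median SE of 0.128 at 7 g/kg, 0.120 at 5 g/kg and 0.120 between doses. Calls were two-sided, at p under 0.05 after Benjamini-Hochberg adjustment across every probe fitted. For listed genes the probe with the highest mean signal was used. The steps were tested on simulated data.

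The 9 genes, the gene lists and the tests were chosen with earlier results of these data known. Besides all probes of the 9 genes, the text draws named genes from up to 5 per list with the smallest p past the threshold and from genes named for their role, plus the 5 most similar genes to 1 Cyp2b and 1 Nr1i3 probe. Arrays with the same replicate number did not deviate together (r −0.198 to 0.199, 9 pairs), so no replicate block was used. Arrays of different groups on the same slide had a median r of 0.169 (8 pairs), against −0.047 for pairs that share neither slide nor number (19 pairs), and slide entered as a block in an alternative fit. Promoter sequences are from RefSeq, GRCm38.p6, and 3 of 3 Cyp2b genes matched. The array design used mm8, so probes are given no coordinates. Alternatives changed the background step, normalization, channel, source, outlier marks, filter, slide and replicate blocks and probe choice, and left out each array in turn.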

Additional observations from a re-analysis of the deposited data

Results flagged for a closer look

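Among the genes named, each 5 g/kg group of 4 arrays was searched for an array far from the others. Of 39 such groups, 2 held one by Dixon's criterion at the 95% level, and chance flags about 1 group in 20. In Hsd3b5, a male-predominant gene, 5 g/kg replicate 3 stood at −2.03 while the other 3 arrays lay between −1.47 and −1.36. Its liver signal was well above background on only 3 of these 4 arrays. In C6, a complement gene of the male-predominant list, 5 g/kg replicate 4 stood at −0.22 while the others lay between −0.08 and −0.06. Neither is a Cyp2b or CAR/PXR axis gene.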

How the results depend on the processing

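No Cyp2b or axis probe changed the sign of its difference from maltose under the alternatives run, leaving out single arrays included; between the doses, Cyp2b13 probe A_52_P289091 ranged from −0.10 to 0.32 when arrays were left out. Cyp2b10 ranged from 3.29 (slide block) to 4.78 (scanner-processed ratio) at 7 g/kg and from 4.28 to 5.73 at 5 g/kg, and Cyp2b9 probe A_51_P467076 reached 4.21 at 7 g/kg and 5.06 at 5 g/kg. Between the doses that probe was at −0.75 with the replicate block and −0.83 with the slide block. From Cy5 alone, Rxra probe A_52_P188139 was at −0.78 and −0.73. The 3054 calls at 7 g/kg against maltose became 777 from Cy5 alone, and 1914 (without maltose replicate 1) to 3047 when arrays were left out. The 1351 calls at 5 g/kg against maltose became 738 from the scanner-processed ratio, 165 from Cy5 alone, 801 from the deposited series table, and 636 (without maltose replicate 1) to 1390 when arrays were left out (653, 877 and 900 without maltose replicate 3, 5 g/kg replicate 1 or maltose replicate 2). The 557 calls between the doses became 153, 62 and 205 under the same 3 settings, 278 with no normexp offset, and 270 (without 7 g/kg replicate 1) to 547 when arrays were left out (297, 349 and 306 without 7 g/kg replicate 2 or 5 g/kg replicate 1 or 2). The 35 listed pathway genes called at 7 g/kg became 12 from Cy5 alone, and 26 to 32 when arrays were left out. The 20 called at 5 g/kg became 11, 3 and 13 under the 3 settings, and 11 to 21 when arrays were left out. With the replicate block, which no pairing backs, the 3 counts were 3036, 1230 and 368, and the pathway counts 35 and 17. With slide as a block they were 2270, 1213 and 469, and 30 and 18. Median centring moved the share of calls that were higher to 66.5% from 51.4% at 7 g/kg and to 75.6% from 59.3% at 5 g/kg. From Cy5 alone, 29 differences of named genes lost their call. The 82 differences examined include ones with no call in the main fit, so 29 of 82 is not the share of calls lost. The causes of these moves were not tested. Keeping marked spots in the differences within slides, and the second Cyp2b13 probe for the search of similar genes, were chosen after seeing the data.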
